A study of Ginkgo biloba with 9 samples.

Results

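Turning leaves of Ginkgo biloba, collected on October 26, were compared with green leaves collected on September 12 of the same autumn, an interval of 44 days. The comparison rests on 6 of the 9 libraries of the series, 3 from turning and 3 from green leaves, matched by the library number in their titles. Per the labels, the leaves came from 3 healthy adult trees grown outdoors, and total RNA of whole leaves was made into Illumina libraries. The labels name no genotype, treatment or tree age, and do not say which library came from which tree. All leaves of a stage were taken on the same date, so stage and calendar date cannot be told apart. The remaining 3 libraries, from yellow leaves of November 8, entered the same model, through the filter, scaling, block and estimate of spread, and are given beside some values.

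Leaf senescence is the ordered last phase of a leaf's life. Chloroplasts are dismantled, chlorophyll is broken down, and nitrogen and other nutrients are moved into the branches before the leaf is shed, a programme that is itself driven by changes in gene expression. In Ginkgo, a deciduous gymnosperm, the carotenoids that remain give the autumn leaf its yellow colour.

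The comparison asked which transcripts had already changed when colour began to turn. The gene models of the deposited table carry identifiers without names, so the results are given by level, size and library, and neither the roles of the models nor marker genes of leaf cell types were examined here. In bulk leaf samples, fewer cells of a type and less RNA per cell cannot be told apart. Total counts ran from 23766331 to 32319325 in the 6 libraries. Of 43834 gene models, 12614 had no count in any of the 6, and 23042 passed the filter on low counts and were tested. The first principal component of the 6 libraries held 58.9% of the variance, with turning libraries 1 to 3 at 62.2, 37.2 and 78.3 and green libraries 1 to 3 at -69.0, -79.9 and -28.9. Turning and green leaves were therefore separated, with green library 3 nearest to the turning side and turning library 2 nearest to the green side.

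A large part of the tested transcripts had shifted by the time the leaves were turning. In turning leaves 4050 models rose and 4442 fell relative to green leaves, together 8492 or 36.9% of those tested (17.6% higher and 19.3% lower; edgeR quasi-likelihood test with the library number as a block, Benjamini-Hochberg adjusted p below 0.05). The median log2 fold change was 0.95 for models that rose and -1.22 for models that fell. Of the models that rose, 53.3% changed by less than 2-fold, and of those that fell, 36.4%. Changes of at least 4-fold were fitted for 633 higher and 687 lower models with TMM, for 543 and 875 with upper-quartile factors and for 491 and 989 on library totals. On the TMM scale, changes of at least 16-fold were fitted for 105 higher and 75 lower models. In 5147 models (22.3% of those tested) all 3 turning libraries lay above all 3 green ones, and in 5663 (24.6%) below them; 3517 and 3893 of these were called. On the TMM scale the falls were thus larger than the rises at their median, among called models only. Scarce models had larger standard errors and so needed a larger change to be called. Models that fell were the scarcer ones at their median, so the medians of rises and falls are not on equal terms.

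The count of calls rested on the pairing of libraries and on single libraries. Without the block, 5556 models were called (24.1%), of which 5545 were among the 8492 and all 5545 had the same direction. The count was 4113 without turning library 2, 4332 without green library 1 and 4228 without green library 2, and the number of models that fell was 2836 without turning library 3. Leaving out all libraries of number 1 gave 4772 calls and of number 2 gave 142, with 7174 models at an unadjusted p below 0.05 in the fit without number 2. Against a minimum of 2-fold, 424 models were higher and 499 lower. The balance of directions depended on the scaling, since TMM factors, which correct for library composition, were 1.05 to 1.10 in turning and 1.22 to 1.27 in green libraries. Of the called models 47.7% were higher under TMM, but 34.9% under upper-quartile factors and 28.6% on uncorrected library totals. Over all tested models the median log2 fold change stood at -0.02 under TMM, at -0.16 under upper-quartile factors and at -0.23 on library totals. Directions here are those of the TMM scale.

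Among the called models, scarce transcripts fell more often than they rose and abundant ones rose more often, on the TMM scale. Models that rose had a median level of 24.4 normalized CPM and models that fell one of 4.70. Models were placed in bands by their mean normalized CPM, that is counts scaled to a common, TMM-corrected library size, over the turning and green libraries. Among the 8945 models at 1 to 10 CPM, 974 rose and 2452 fell, or 10.9% and 27.4%. Among the 8718 models at 10 to 100 CPM the order was the opposite, with 2178 rising and 1291 falling, but with upper-quartile factors 1554 rose and 1737 fell. Among the 1712 models at 100 to 1000 CPM, 590 rose and 173 fell, or 34.5% and 10.1%. The median fitted log2 fold change was -0.25, 0.12 and 0.27 in these bands. Ratios within each library number were a different measure, taken as a difference of log2(normalized CPM + 0.5). Their medians were nearly the same from number to number, from -0.23 to -0.22 at 1 to 10 CPM and from 0.25 to 0.28 at 100 to 1000 CPM. On library totals, 1251 models rose and 2021 fell at 10 to 100 CPM, and 381 rose and 319 fell at 100 to 1000 CPM. The band medians were then -0.46, -0.09 and 0.05, a shift close to that of the median of all models.

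The ends of the range held fewer calls or fewer models. Below 1 CPM, 288 of 3601 models rose and 514 fell, and 145 rose and 728 fell when levels were averaged over all 9 libraries. At 1000 CPM and over, 20 of 66 models rose and 12 fell, and 41 rose and 6 fell with the levels of all 9 libraries. In that band the direction turned to 16 rising and 17 falling with upper-quartile factors and to 12 rising and 18 falling on library totals. Levels over all 9 libraries include yellow leaves, where the median risen model stood higher still and the median fallen one lower. Banding by those levels therefore depends in part on the direction of the change. Of the 20 models with the highest mean level, 8 rose, 12 were not called and 0 fell on the TMM scale. The share called was 40%, against 36.9% of all tested models. Of the 100 with the highest mean level, 32 rose and 14 fell, or 46% called. These lists were counted on the TMM scale only. Precision was lowest for scarce models. The median standard error of a log2 fold change was 0.50 below 1 CPM, 0.26 at 1 to 10 CPM and 0.16 at 10 to 100 CPM. Among models with a fitted change of at least 2-fold, 51.8% were called below 1 CPM, 86.8% at 1 to 10 CPM and 90.4% at 10 to 100 CPM.

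**Figure D1:**
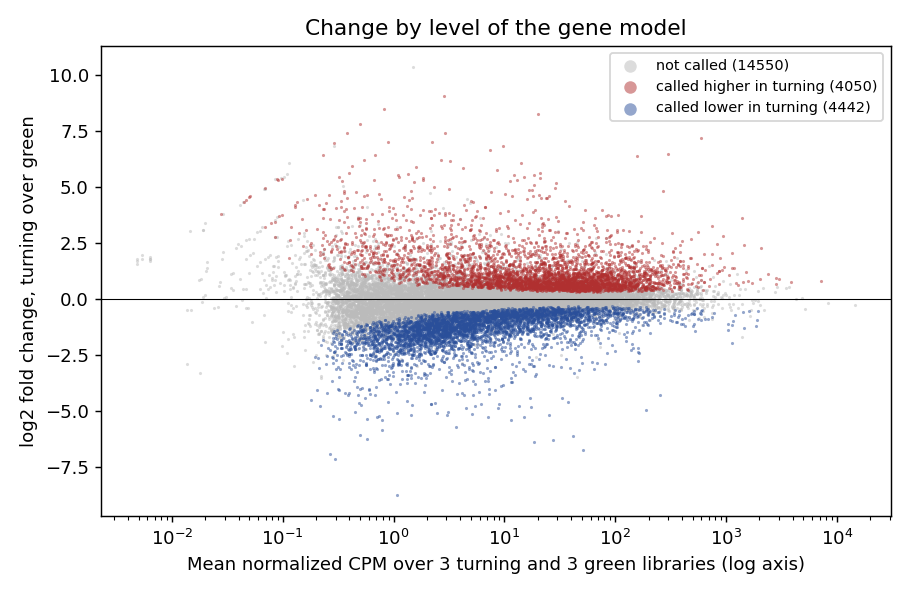
Fitted log2 fold change of turning over green leaves (vertical axis) against mean normalized CPM over the 6 libraries (horizontal, log axis), 1 point per tested gene model. Red points mark the 4050 models that rose, blue points the 4442 that fell and grey points models not called; the red cloud lies further to the right than the blue one.

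**Figure D2:**
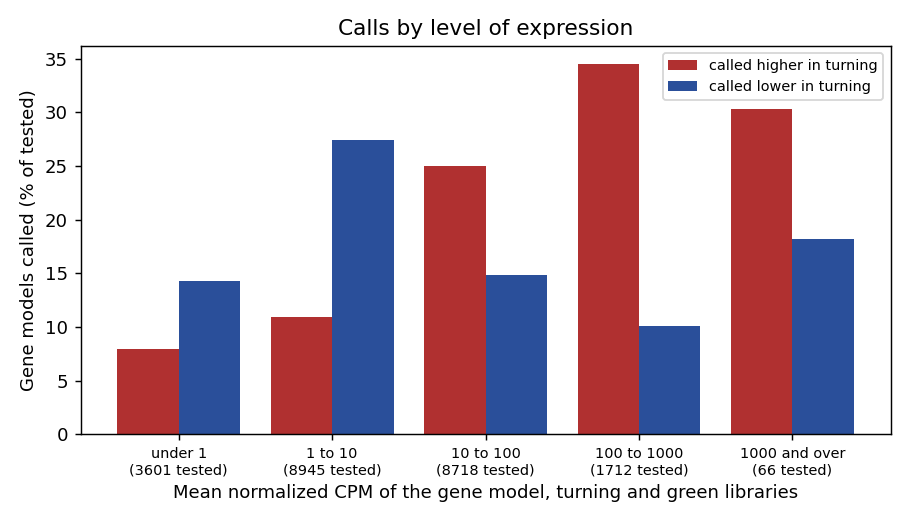
Percentage of tested gene models called higher (red) and lower (blue) in turning leaves, by band of mean normalized CPM. Falls exceed rises in the bands under 10 CPM, and rises exceed falls in the bands from 10 CPM upward on the TMM scale; with upper-quartile factors or on library totals, falls exceed rises also at 10 to 100 CPM and at 1000 CPM and over.

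Few transcripts had 0 counts in all 3 libraries of 1 stage and at least 10 counts in each library of the other. A single count excludes a model under this rule, so it leaves out falls as large as the 106-fold one of Gb_34515, given below. At least 10 counts in every library of a stage were reached by 20393 models in turning and 21232 in green leaves, and 19808 models reached this in all 6 libraries. Among models with at least 10 counts in each turning library, 2 had 0 counts in all 3 green libraries, and 1 of these passed the test. The more abundant of these averaged 3.01 normalized CPM in turning leaves, against a floor of 0.0289 CPM, which stands for 3 counts over the 3 green libraries. In the opposite direction 3 models had 0 counts in turning leaves, and all 3 passed the test. The highest of them averaged 2.14 CPM in green leaves, against a floor of 0.0327 CPM in turning leaves. In yellow leaves, 2 of the 3 again had 0 counts. These floors cover counting error only. Models reaching 1 CPM on library totals numbered 18776 ± 257 in turning and 19953 ± 109 in green leaves (SD, n = 3 each), a difference of -1177, which was -795 on TMM-scaled totals (two-sided exact permutation p = 0.1 for each). Models reaching 10 CPM on library totals numbered 10569, 10606 and 10459 in turning libraries and 11176, 11279 and 11354 in green libraries. The stages did not overlap, and the mean difference, turning minus green, was -725 models (two-sided exact permutation p = 0.1, the smallest possible for 3 against 3 libraries; 0.25 within library numbers, also the smallest possible).

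The table holds a main set of models with Gb_ identifiers and a smaller set with another prefix, and their calls split differently. Of 1574 tested models of the smaller set, 265 rose and 172 fell on the TMM scale, but 196 rose and 257 fell on library totals. Of 21468 tested Gb_ models, 3785 rose and 4270 fell with TMM, and 2304 rose and 5988 fell on library totals. Rises of at least 4-fold were fitted for 95 models of the smaller set and 538 Gb_ models, and falls of that size for 28 and 659. The smaller set had lower levels, with a median of 2.65 normalized CPM against 8.64 CPM for Gb_ models, and larger standard errors, with medians of 0.32 and 0.22. Within the band of 1 to 10 CPM, 14.3% of the smaller set rose and 13.9% fell, while 10.6% of Gb_ models rose and 28.7% fell. Below 1 CPM, 13.7% of the smaller set rose and 5.91% fell, against 7.13% and 15.5% of Gb_ models. At 10 to 100 CPM the sets were closer, with 25.8% and 11.9% against 24.95% and 14.9% for Gb_ models. At 100 to 1000 CPM the shares were 31.9% and 8.51% against 34.5% and 10.2%. The different split was thus seen mainly under 10 CPM, on the TMM scale. The difference between the sets was not tested.

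The change was also read within each library number, which need not share a tree. The ratio of turning to green leaves was taken within each number as a difference of log2(normalized CPM + 0.5). The numbers of models at least 2-fold higher were 2442, 1813 and 1718 in library numbers 1, 2 and 3, and of models at least 2-fold lower 2493, 2417 and 2330. Number 1 had the widest spread of ratios, with a standard deviation over models of 0.94, against 0.83 in number 2 and 0.81 in number 3. In all 3 numbers together, 836 models were at least 2-fold higher and 1112 at least 2-fold lower, which is 3.63% and 4.83% of those tested, and 1921 of them were called. A further 79 models were at least 2-fold higher in 1 number and at least 2-fold lower in another, and none of them passed the test. Ratios so opposed leave a wide spread in a test with the number as a block. That none passed therefore says little about agreement among the numbers.

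Calls made without a library number were then read in the number left out, for the models that were also tested in the fit of all libraries. Of 4757 models called from numbers 2 and 3, 97.6% had the same direction in number 1, as did 81.0% of all models tested there. Of 6845 models called from numbers 1 and 2, 96.8% had the same direction in number 3, against 81.1% of all. Of the 142 models called from numbers 1 and 3, 97.9% had the same direction in number 2, against 84.0% of all. In number 1 the median log2 ratio was 0.97 for models that had risen in the other numbers and -1.16 for models that had fallen in them. In number 3 these medians were 0.81 and -0.97. The scaling factors were estimated on all libraries and are shared by both sides of this comparison.

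**Figure D3:**
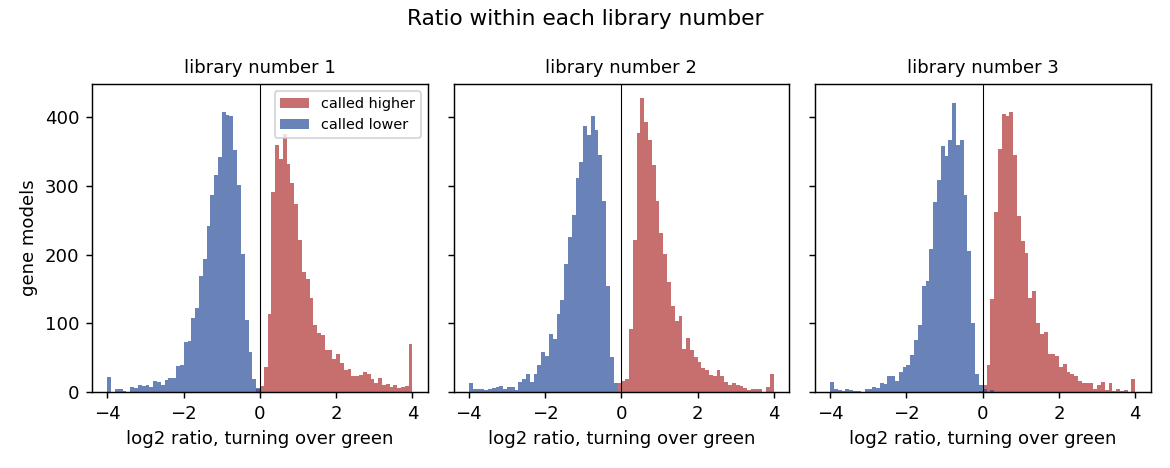
Distribution of the log2 ratio of turning over green leaves within library numbers 1, 2 and 3, for models called higher (red) and lower (blue); ratios past 4 in size are drawn in the outermost bar. The models were called on these libraries, so their separation around 0 is set by the call; medians were 0.85, 0.83 and 0.80 for higher and -0.99, -0.96 and -0.92 for lower models.

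The library numbers also differed in level. Beside the stage, 1568 models (6.8%) differed among the 3 numbers (edgeR quasi-likelihood F test on the block, adjusted p below 0.05). Of these, 692 were also called between turning and green leaves, or 44.1%, against 36.9% of all tested models. The test used all 9 libraries, but the number farthest from the others was read from mean log2 levels of turning and green libraries only. Number 3 stood farthest for 864 of the 1568 models, number 2 for 439 and number 1 for 265. For number 3 this was 55.1% of those models, against 44.0% of all tested models. Within stages the median standard deviation of the log2 level was 0.25 in turning and 0.22 in green leaves. The median standard error of a log2 fold change was 0.23 with the block and 0.29 without it.

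The 2 largest rises that met the rule for naming, which asks for separate groups, at least 10 normalized CPM in the higher stage and a mean of at least 10 counts in the lower one, were those of Novel01592 and Gb_29595. Of the models that rose, 2696 met this rule, as did 1501 of those that fell. Novel01592 stood at 702, 1133 and 1724 normalized CPM in turning libraries 1 to 3, against 3.51, 7.92 and 14.4 CPM in green libraries 1 to 3. The groups were far apart, and library number 3 was the highest and number 1 the lowest in both stages. Its log2 fold change was 7.18 ± 0.44 (SE, n = 3 each; edgeR adjusted p = 0.000508), or 145-fold. In yellow libraries 1 to 3 it stood at 6921, 8612 and 6976 CPM.

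Gb_29595 stood at 1193, 222 and 353 normalized CPM in turning libraries 1 to 3, against 10.3, 1.51 and 12.7 CPM in green libraries 1 to 3. Turning library 1 was well above the other turning libraries and green library 2 well below the other green ones, without overlap between the stages. The log2 fold change was 6.49 ± 1.03 (SE, n = 3 each; edgeR adjusted p = 0.00495), or 90.1-fold. It was 5.49 without turning library 1, 7.16 without turning library 3 and 6.25 ± 0.63 (SE) with the 6 compared libraries alone. Without library number 2 the model missed the threshold (6.24, edgeR adjusted p = 0.0794, and 1.4e-10 to 0.0794 over all alternatives). In yellow libraries it stood at 187, 238 and 1985 CPM, so the library with the highest level was number 1 in turning and number 3 in yellow leaves.

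The 2 largest falls by the same rule were those of Gb_34515 and Gb_26484. Gb_34515 stood at 0.57, 2.22 and 0.47 normalized CPM in turning libraries 1 to 3, from 15, 69 and 16 counts, against 53.0, 159 and 94.7 CPM in green libraries 1 to 3. Number 2 was the highest library in both stages. The model fell by 6.73 ± 0.40 on the log2 scale (SE, n = 3 each; edgeR adjusted p = 0.000525), which is 106-fold. In yellow libraries it stood at 0.5004, 1.15 and 0.17 CPM.

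Gb_26484 stood at 0.23, 1.13 and 0.088 normalized CPM in turning libraries 1 to 3, from 6, 35 and 3 counts, against 39.2, 59.7 and 9.76 CPM in green libraries 1 to 3. Number 2 was again the highest and number 3 the lowest in both stages, and the levels of this model differed among the numbers (edgeR F test on the block, adjusted p = 0.0329). It fell by 6.40 ± 0.42 on the log2 scale (SE, n = 3 each; edgeR adjusted p = 0.000576), which is 84.5-fold. In the yellow libraries it had 0, 1 and 1 counts. Models with close copies elsewhere in the genome, or with an overlapping neighbour, could not be recognised here, and the counts of any single model are uncertain to that extent.

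**Figure D4:**
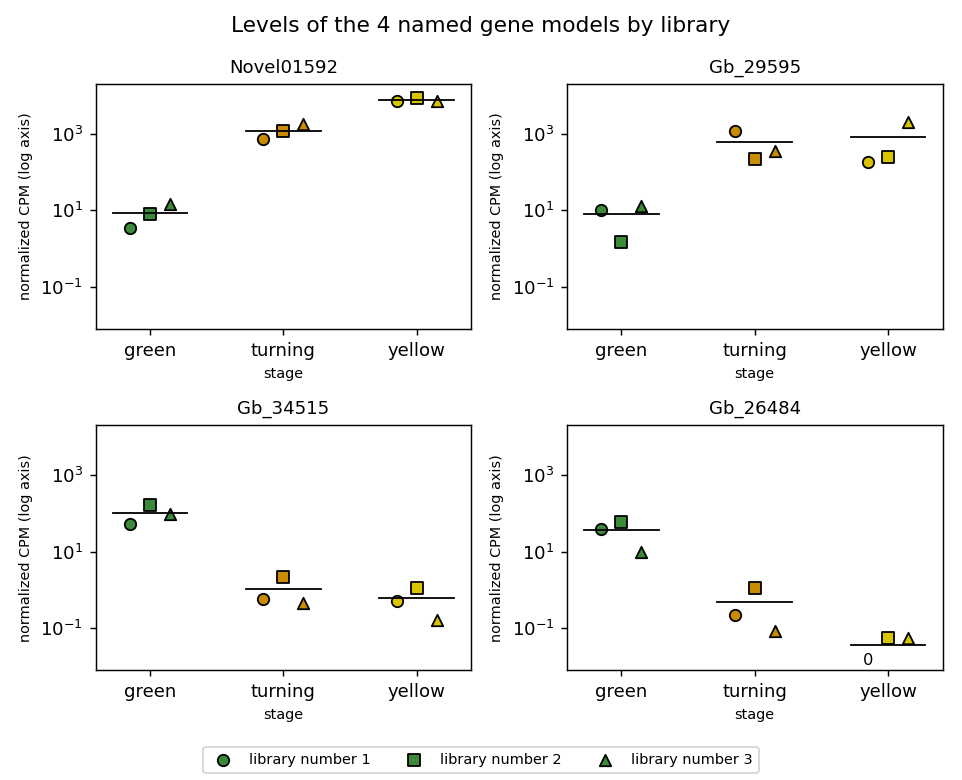
Normalized CPM (log axis) of the 4 named gene models in green, turning and yellow libraries; markers give the library number, horizontal lines the mean of 3 libraries, and a 0 marks a library without counts. All turning libraries lie above all green ones for Novel01592 and Gb_29595 and below them for Gb_34515 and Gb_26484.

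The transcripts that rose took over a large part of the RNA pool. The shares below describe models chosen on these libraries and carry no test. The 4050 models that rose held 36.3%, 35.6% and 39.6% of the counts in turning libraries 1 to 3, against 19.8%, 19.6% and 24.3% in green libraries 1 to 3. The 4442 models that fell held 7.62%, 8.43% and 6.91% in turning libraries and 18.2%, 17.7% and 14.7% in green libraries. On average the rising models gained 15.9 percentage points of all counts, and the share of the falling ones dropped by 9.21 percentage points. Models that were not called held 53.5% to 56.0% of the counts in turning and 60.9% to 62.6% in green libraries. These shares use library totals, without TMM factors.

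A small part of the called models gave much of the gain and of the loss. Of the 4050 models that rose, the 188 with the largest gains gave 50% of the whole gain. Of the 4442 that fell, 158 gave 50% of the whole loss. The largest single gain was 3022 CPM on library totals and the largest loss -2091 CPM. Gains of over 1000 CPM were seen for 16 models and losses of that size for 10. In yellow leaves, which are in neither stage compared but took part in the model that called these sets, the risen models held 48.9% to 52.8% of the counts and the fallen ones 3.44% to 4.04%. The median level of a risen model was 14.7 to 18.0 normalized CPM in green libraries, 28.8 to 33.9 in turning libraries and 49.1 to 55.9 in yellow libraries. The median of a fallen model was 5.53 to 7.14 CPM in green, 2.25 to 2.93 in turning and 1.30 to 1.48 in yellow libraries, and no stage overlapped the next in either set. The separation of turning from green leaves follows from the choice of the models.

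**Figure D5:**
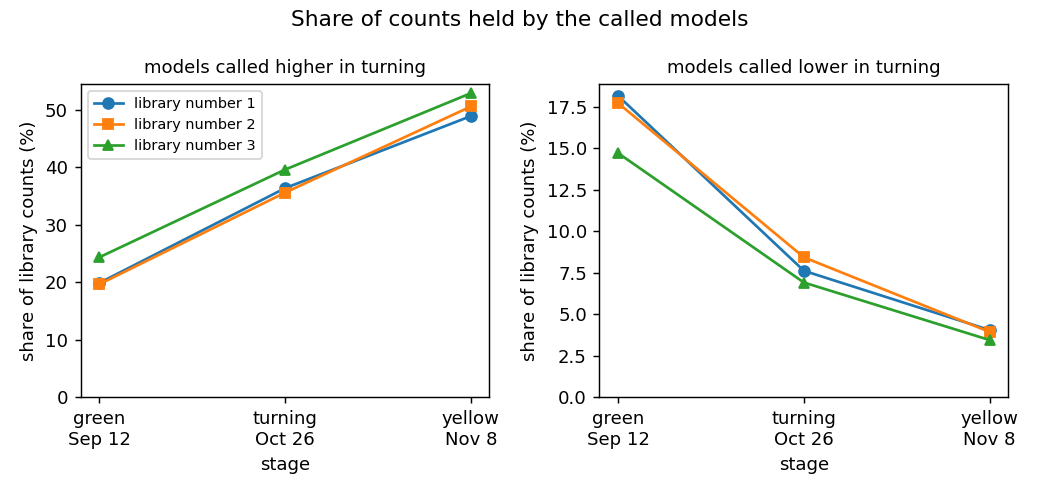
Share of each library's counts held by the 4050 models that rose (left) and the 4442 that fell (right) between green and turning leaves, at the 3 dates and with 1 line per library number. Number 3 has the highest share of risen models and the lowest share of fallen models at each date.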

How the data were processed

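The deposited table holds raw counts, with a column for each library, per the file header. HTSeq 0.6.1, HISAT2 2.0.4 and CASAVA 1.8 are listed in the submitters' processing notes, without their roles. Genome build, annotation and strand setting were not given in the sources used here. No name table or coordinates were used, so the pathway and cell type lists were not tested. The analysis used edgeR 4.0.16 in R 4.3.3: filterByExpr by stage (minimum count 10, minimum total 15), TMM factors, and 1 quasi-likelihood model (glmQLFit, robust = TRUE) over all 9 libraries with stage and library number, leaving 4 residual degrees of freedom. The p-values of this model are two-sided and adjusted over all 23042 models, and the scripts were tested on simulated data. A standard error is the fold change divided by the root of its F value.

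Library numbers were read as pairing the libraries: deviations from stage means correlated across models with r = 0.36, 0.67 and 0.61 between turning and green libraries of the same number and with -0.53 to -0.01 otherwise (0.18 to 0.67, and -0.53 to 0.10, over all stages). The labels do not state this pairing. Deviations sum to 0 within a stage, so positive values for the same number bring the others below 0 on average. The negative values are therefore not separate evidence of pairing. Libraries of a stage differed beyond sampling noise (chi-square per degree of freedom 43.9 to 107), so none was counted as a repeat. The spread behind each p-value of the main model is what remains among all 9 libraries after stage and library number are fitted. It is not the full spread between libraries of a stage, and it may be technical in part. Named models were the 2 largest rises and 2 largest falls under the rule given with them. The comparison, the rule and the alternatives were chosen with earlier results of these data known. Alternatives were RLE, upper-quartile or no scaling factors, no filter or 1 CPM in 3 libraries, DESeq2 1.42.0, limma-voom (limma 3.58.1), robust = FALSE, no block, the 6 libraries alone, a 2-fold minimum, and each library or library number left out.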

Additional observations from a re-analysis of the deposited data

How the results depend on the processing

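No alternative turned round the direction of a model called in it and in the reported fit. All fits used the same counts or a part of them, and only models called in both were compared. A reversal was therefore hardly possible, and its absence is no test of the directions. With no replicate block, 5556 models were called, 2843 of them lower, with 164 models of the smaller set higher and 98 lower and 2745 Gb_ models lower. Against a 2-fold minimum 923 were called, 424 higher and 499 lower. With library totals 2500 models were higher, 2304 of them Gb_; by level, 637 were higher at 1 to 10 CPM, 1251 higher and 2021 lower at 10 to 100 CPM, 381 higher and 319 lower at 100 to 1000 CPM, and 12 higher at 1000 CPM and over. With upper-quartile factors 271 were lower at 100 to 1000 CPM, and 1554 higher and 1737 lower at 10 to 100 CPM. With levels averaged over all 9 libraries, 145 were higher under 1 CPM, 909 higher at 100 to 1000 CPM, and 41 higher and 6 lower at 1000 CPM and over. Leaving out libraries gave 142 to 9784 calls, 91 to 4684 higher and 51 to 5100 lower, lowest without number 2 and highest without yellow library 3. A library number left out leaves 2 pairs and 2 residual degrees of freedom; otherwise the cause of these changes was not tested. RLE factors, the other filters, robust = FALSE, DESeq2, limma-voom and the 6 libraries alone gave 7808 to 9540 calls. The turning-minus-green difference in models detected was -1177 at 1 CPM, -795 at 1 CPM on TMM-scaled totals, -725 at 10 CPM and -424 at 1 count (exact permutation p = 0.1 each). Of the 4 named models, all kept their direction in 22 alternatives each, and Gb_29595 alone missed the threshold, in the alternative given with it. Standard errors were largest for models below 1 CPM.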

Other observations

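At each date, library number 3 differed from the other numbers in the same direction as turning from green leaves, a pattern noticed in the shares of counts and described here without a test. In green library 3 the models that rose by the turning stage stood above the mean of green libraries 1 and 2 by a median of 0.19 on the log2 scale, and the models that fell stood at -0.25, while the median of all tested models was -0.0022. Turning library 3 stood at 0.17 and -0.19 against the other turning libraries. Yellow libraries are in neither stage compared, but took part in the model that called these sets. Among them, library 3 stood at 0.12 for risen and -0.06 for fallen models against the other yellow libraries, with 0.01 for all tested models. In yellow library 3, 60.9% of the risen models lay above the mean of the other libraries, as did 51.4% of all tested models, and 55.6% of the fallen models lay below it, as did 48.3% of all. Number 2 lay on the opposite side, with -0.13 and 0.16 in green, -0.12 and 0.17 in turning, and -0.05 and 0.07 in yellow leaves for risen and fallen models. Number 1 stood at -0.07 and 0.08 in green, -0.04 and 0.02 in turning, and -0.07 and -0.02 in yellow leaves. Each library is set against the mean of the others of its stage, so the values of the numbers are tied to each other. Whether a number marks a tree, a position or a batch of extraction is not stated in the labels and was not tested.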
